A study of Mus musculus with 24 samples.

Results

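The Hippo pathway core was examined in haematopoietic stem cells, through the transcripts of the coactivators TAZ (gene Wwtr1) and YAP (Yap1), the TEAD transcription factors Tead1 to Tead4, and the kinases Stk3, Stk4, Lats1 and Lats2. These 10 genes were chosen by name, with earlier comparisons of the ages in these same mice in view. Of them, 7 (Wwtr1, Yap1, Tead1, Tead2, Tead4, Lats1 and Stk4) had a row among the 18762 genes of the table of normalized read counts. The expression of Tead3, Lats2 and Stk3 was not analysed here. RNA-seq had been performed on LSK-SLAM cells, a bone marrow population rich in stem cells that is sorted for c-Kit, Sca-1 and CD150 and against CD48 and the markers of mature lineages. The cells came from young mice, 4 to 5 months old (n = 5), and old mice, 20 to 22 months old (n = 7), and all 12 mice were wild type (WT) of strain C57BL/6 with no treatment named in the labels. Age was the only factor that set the groups, in a study of how niche-derived netrin-1 and its receptor neogenin-1 control stem cell dormancy.

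In the Hippo pathway, the kinase MST1 (Stk4) and its paralogue MST2 (Stk3) activate LATS1 and LATS2, which phosphorylate TAZ and YAP. Phosphorylated TAZ and YAP are held in the cytoplasm and degraded, whereas the unphosphorylated proteins enter the nucleus and bind TEAD factors on DNA, where they activate growth and matrix genes. The pathway is best known for the control of organ size and of stem cells in epithelia, and in blood it is known mainly for the part that MST1 plays in lymphocytes. Control acts largely on the proteins, which RNA levels do not show.

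The core was carried by different transcripts at very different levels (the plot of normalized read counts by mouse). Stk4 was abundant, Wwtr1 was the main coactivator transcript, and Yap1, Tead1 and Tead4 were close to the level of genes that the sort selects against. Between the ages, Wwtr1 had the largest difference of the 7 genes and was 1.82-fold higher on average in old mice, whereas the other 6 genes had means that differed by less than the spread between mice. These age values are a description, with no test, since Wwtr1 was chosen for its age value. Yap1, Tead1 and Tead4 instead followed a split between libraries that is marked by a letter in the mouse labels, and both letters occur at both ages. The split was broad, with 36.1% of all genes tested called between the letters by limma. Of the genes with means of 10 to 20, where Yap1 and Tead4 lie, 53.7% were called lower in letter B.

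**Figure D1:**
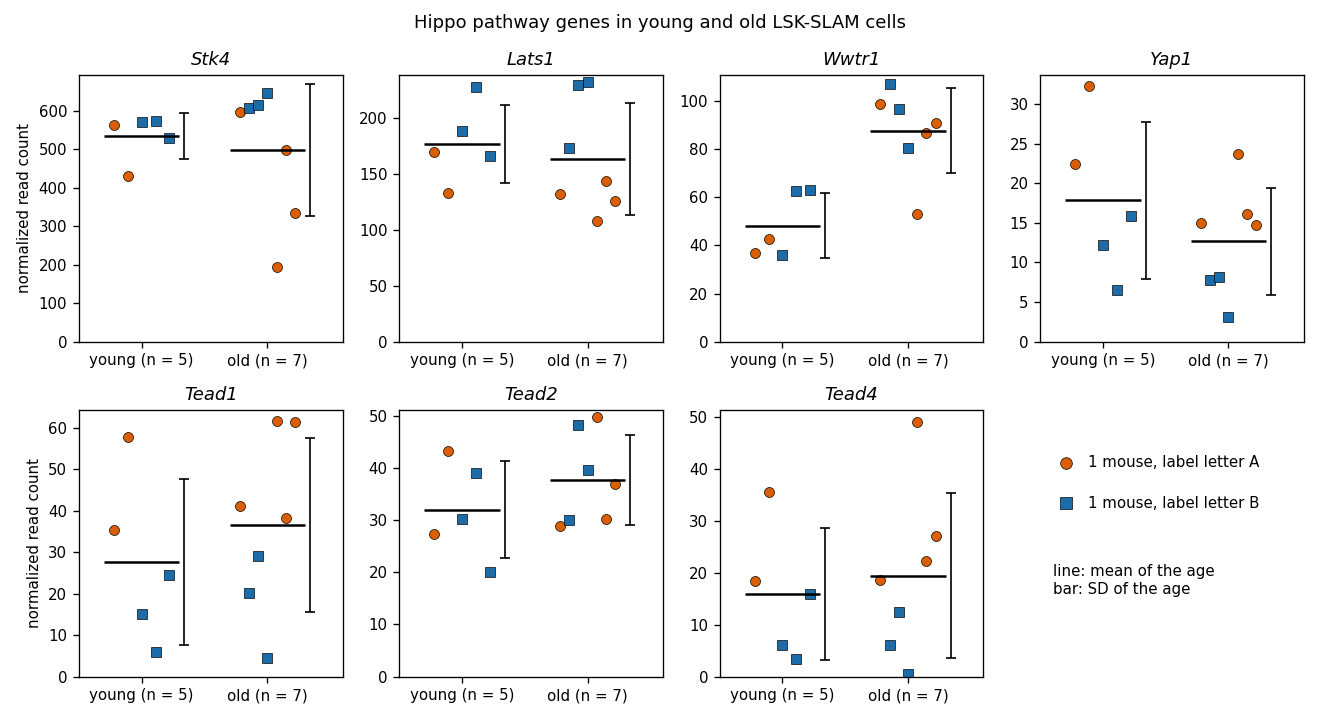
Normalized read counts (y axis, linear, a separate scale for each gene) of the 7 Hippo pathway genes in each young (n = 5) and old (n = 7) mouse. Each point is a mouse, its shape and colour give the letter in the mouse label, the line is the mean and the bar beside it the SD of the age. Wwtr1 lay between 35.9 and 62.9 in young and between 52.9 and 107 in old mice, and in Tead1 and Tead4 every letter A mouse lay above every letter B mouse.

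The promoters of the coactivators are shown because TEAD factors, the partners of TAZ and YAP, recognise the letters GGAATG, which read CATTCC on the other strand, and because Amotl2, a target gene described with the pathway genes below, carries the same motif. The sequences run from 250 bases before to 50 bases after a RefSeq transcript start, in the direction of the gene, on the mouse build GRCm38 (mm10), and capitals mark the motif.
Wwtr1, chr3:57575861-57576160, minus strand: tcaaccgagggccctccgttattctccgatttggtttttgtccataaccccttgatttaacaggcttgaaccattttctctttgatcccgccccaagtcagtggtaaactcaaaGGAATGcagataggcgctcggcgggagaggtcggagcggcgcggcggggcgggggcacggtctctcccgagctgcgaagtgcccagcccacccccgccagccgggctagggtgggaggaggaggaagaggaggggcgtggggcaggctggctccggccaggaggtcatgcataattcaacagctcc
Yap1, chr9:8004547-8004846, minus strand: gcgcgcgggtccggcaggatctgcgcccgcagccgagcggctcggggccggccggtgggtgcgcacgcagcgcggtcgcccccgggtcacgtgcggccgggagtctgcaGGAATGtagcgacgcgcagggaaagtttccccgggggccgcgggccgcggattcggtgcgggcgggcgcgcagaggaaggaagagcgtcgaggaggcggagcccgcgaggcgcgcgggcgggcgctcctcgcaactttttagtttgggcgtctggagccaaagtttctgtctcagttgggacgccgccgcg
Amotl2, chr9:102717554-102717853, plus strand: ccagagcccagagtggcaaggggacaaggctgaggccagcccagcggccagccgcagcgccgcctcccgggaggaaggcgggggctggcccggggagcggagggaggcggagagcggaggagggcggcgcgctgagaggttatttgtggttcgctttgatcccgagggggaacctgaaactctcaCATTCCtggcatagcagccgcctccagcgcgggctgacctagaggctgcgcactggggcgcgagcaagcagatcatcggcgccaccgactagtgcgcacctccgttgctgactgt
The motif begins 136 bases before the start of Wwtr1, 141 bases before that of Yap1 and, on the reverse strand, 65 bases before that of Amotl2. A second RefSeq start of Wwtr1 lies nearby, so that the same motif falls 170 bases before it. Of the 10 core genes, 7 had a promoter entry, and 4 of these, Wwtr1, Yap1, Tead3 and Lats2, held the motif in at least 1 promoter. Of 22 target genes, 14 had an entry and 6 held it, and Lats2 is counted among both the core and the target genes. The motif occurs in 14.7% of 32851 promoters of this length and in 16.6% of genes with an entry. These letters are a description, and binding was not tested. The promoters of Tead2, Lats1 and Stk4 hold no such letters in this window.

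Of the motifs searched for blood transcription factors, the RUNX motif TGTGGT was found in the Amotl2 promoter only, and neither the GATA motif AGATAA nor the ETS motif CCGGAA occurred in any of the 3 promoters on either strand. These motifs occur in 16.8%, 11.2% and 14.9% of all promoters, respectively.

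Recovered read totals ranged from 861047 to 5118507 per mouse, and the depth followed the letter. The 6 mice whose label ends in A (2 young, 4 old) had 861047 to 3106243 reads, and the 6 whose label ends in B (3 young, 3 old) had 3233516 to 5118507, so that depth and letter cannot be told apart. The labels do not say what the letter stands for. The sorted cells carried the genes of their gate, with a mean over 12 mice of 169 normalized read counts per kb of exons for Kit, 83.0 for Ly6a (Sca-1) and 15.1 for Slamf1 (CD150). Genes that the gate or the lineage depletion selects against were low but detected, from 1.5 per kb for Ms4a1 to 6.09 for Ly6g. In such bulk samples, fewer cells of a type and less RNA per cell cannot be told apart.

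Normalized read counts were therefore first compared between the core genes per kb of exons, a scale that allows levels of different genes to be set side by side (the plot of levels per length). Stk4 was the highest at 87.6 ± 22.7 (SD, n = 12 mice), above 98.9% of genes. Lats1 followed at 23.2 ± 5.91, Wwtr1 at 14.9 ± 5.34 and Tead2 at 7.37 ± 1.88. Tead4 at 4.98 ± 3.93, Tead1 at 2.42 ± 1.48 and Yap1 at 1.6 ± 0.891 closed the order, and Yap1 stood above only 9.59% of genes.

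The order was set by the means of these same mice, so it is given as a description, with no test. Stk4 was above Lats1 in 12 of 12 mice, and Wwtr1 was above Tead2 in 11 of 12, and in these pairs the ranges of mean ± SD did not meet. In the other 4 of the 6 pairs of neighbours the ranges overlapped. Lats1 was above Wwtr1 in 10 of 12 mice, Tead4 above Tead1 in 11, Tead2 above Tead4 in 9 and Tead1 above Yap1 in 9. The order of Tead2 and Tead4 turned with the letter in the mouse label, with means of 7.53 and 7.90 in the 6 letter A mice and of 7.22 and 2.05 in the 6 letter B mice.

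Wwtr1 was the higher coactivator transcript in 12 of 12 mice, with a median ratio to Yap1 of 11.2 per kb. The ratio was 2.57 at its lowest, in young mouse 2, and 50.2 at its highest, in old mouse 4. Medians of the ratio were 7.40 in letter A and 20.9 in letter B, and 5.72 in young and 12.9 in old mice. The values by age are a description, since Wwtr1 was chosen for its age value, and the letters are spread unevenly over the ages.

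Against other cell types, Wwtr1 at 14.9 per kb was above the highest of 8 genes that the gate selects against (Ly6g, 6.09) and of 12 mesenchymal and endothelial markers (Pdgfrb, 6.95). On the mean over 12 mice Tead2 was above the genes of both lists, but in letter A, where it had 7.53, Pdgfrb (8.45), Col1a1 (7.98) and Ly6g (8.82) were higher. By contrast, 7 of the 8 gate-negative genes stood at or above Yap1, 5 at or above Tead1 and 2 at or above Tead4. Of the 12 mesenchymal and endothelial markers, 11 stood at or above Yap1, 10 at or above Tead1 and 3 at or above Tead4. Markers of megakaryocytes, the platelet precursors, were the exception for Wwtr1. Of the 5 with a row, Pf4 at 35.6 and Gp9 at 25.8 per kb were above Wwtr1 and Tead2, 3 stood at or above Tead4, and all 5 stood above Tead1 and Yap1. The part of other cells in the reads of Yap1, Tead1 and Tead4 was not tested.

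**Figure D2:**
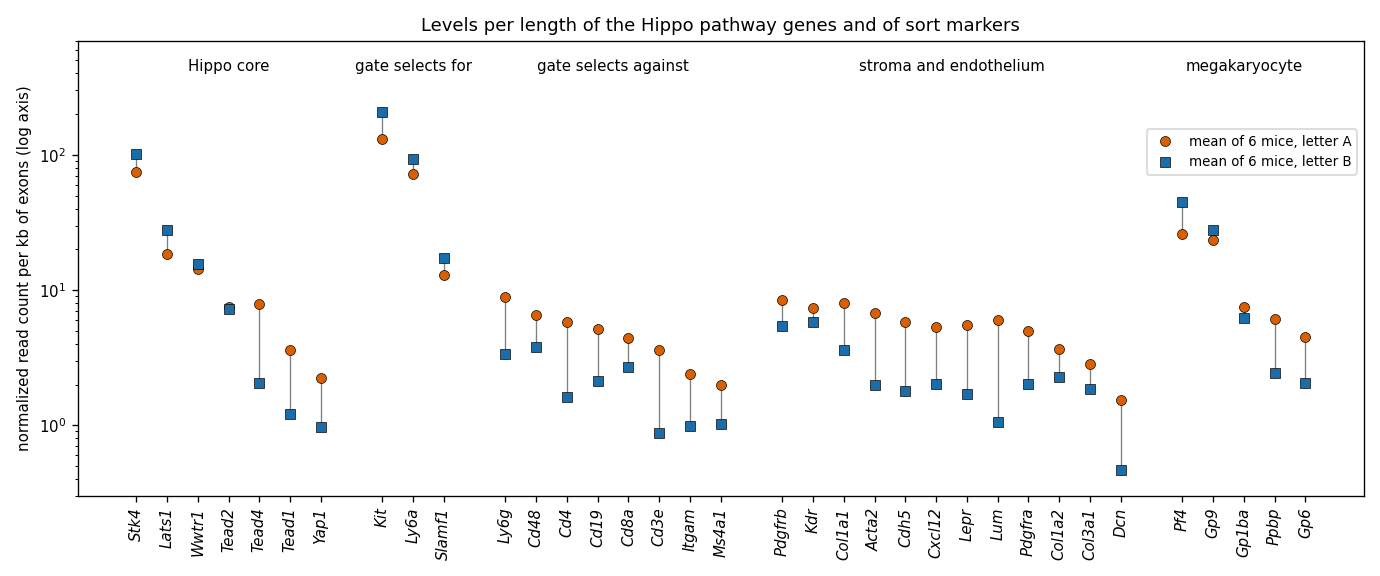
Mean normalized read count per kb of exons (y axis, log scale) of the 7 Hippo core genes, of 3 genes the gate selects for, 8 genes it selects against, 12 markers of stroma and endothelium and 5 of megakaryocytes. Circles are means of the 6 letter A mice and squares of the 6 letter B mice; the grey line joins them. Wwtr1 had 14.3 in A and 15.6 in B, whereas Tead4 had 7.90 and 2.05, Tead1 3.63 and 1.22, and Yap1 2.23 and 0.965, and the genes the gate selects against also had lower means in B. The megakaryocyte marker Pf4 had 26.0 in A and 45.1 in B.

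Wwtr1 (chr3:57455649-57575910, minus strand) encodes TAZ. Its normalized read counts in young mice 1 to 5 were 36.7, 42.8, 35.9, 62.8 and 62.9. In old mice 1 to 7 they were 99.0, 107, 96.6, 80.7, 52.9, 86.9 and 91.0. All old mice but mouse 5 lay above all young mice, and old mouse 5 lay below young mice 4 and 5, so that the ages overlapped by this 1 mouse. Old mouse 5 had 1133194 reads, of which 67 were of Wwtr1, the fewest of any mouse. It also had the lowest summed normalized read count of the 3 genes that the gate selects for, 624, and the highest of the gate-negative genes, 191, and of the mesenchymal and endothelial markers, 582. The means were 48.2 ± 13.6 (SD, n = 5) in young and 87.8 ± 17.6 (n = 7) in old mice, and the difference was 0.86 on the log2(normalized read count + 1) scale (SE 0.21).

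Because the 10 genes were named with earlier comparisons of the ages in these same mice in view, their age values are given as a description, with no test. Of the 12354 genes tested, 191 (1.55%) had a larger old-minus-young value than Wwtr1. None of the 7 core genes separated the ages without overlap, against 0.461% of all genes, and none was among the 13 genes (0.105%) called between the ages by limma, counts from which nothing is read here.

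Within each letter, the Wwtr1 values are again a description, with 2 young and 4 old mice in A and 3 of each age in B. The ages did not overlap within either letter. The share of all genes without such overlap was not counted, so nothing is read from it. Letter A mice had 36.7 and 42.8 in young and 52.9 to 99.0 in old, and letter B mice had 35.9 to 62.9 in young and 80.7 to 107 in old. The old-minus-young value was 1.0 within A, 0.84 within B and 0.92 with the letter as a covariate. Fits that left out 1 mouse at a time gave 0.77 to 0.98, highest without old mouse 5, and libraries thinned to 861047 reads gave 0.84. The difference between the letters in this value was -0.16 (SE 0.42, adjusted p = 1.0, limma).

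Yap1 (chr9:7931999-8004596, minus strand), the paralogue of TAZ, was the lowest of the 7 genes per length. Its normalized read counts were 22.4, 32.2, 12.2, 6.48 and 15.9 in young mice 1 to 5. In old mice they were 3.11 at the lowest, 14.8 at the median and 23.7 at the highest. The ages overlapped widely, with means of 17.8 ± 9.91 in young and 12.6 ± 6.79 in old mice, and the log2 difference of -0.48 (SE 0.49) was smaller than its error. Without 1 mouse it ranged from -0.77 (young mouse 4) to -0.22 (old mouse 4). Counts behind these values were 12 to 72 reads per mouse. Thus Wwtr1 and Yap1 had age values of opposite sign, although the difference between them was not tested, since Wwtr1 was chosen for its age value.

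Between the letters Yap1 did differ. Letter A mice had 14.8 at the lowest, 19.2 at the median and 32.2 at the highest, and letter B mice had 3.11, 8.0 and 15.9. Letter B was lower by a log2 difference of -1.32 (SE 0.37, adjusted p = 0.00876, limma with age as covariate), with overlap between 14.8 and 15.9. The value was -1.24 in young mice alone (adjusted p = 0.191) and -1.38 in old mice alone (adjusted p = 0.0771), where it did not pass the threshold. Wwtr1 had means of 68.2 ± 27.2 in A and 74.4 ± 25.9 in B (n = 6 each), with a log2 difference of 0.29 (SE 0.20, adjusted p = 0.256) that did not pass the threshold.

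The TEAD factors bind DNA for both coactivators, and each of the 3 transcripts with a row had its own pattern. Tead2 (chr7:45215753-45233644, plus strand) was the most even. It had normalized read counts of 27.4, 43.3, 30.2, 39.0 and 20.0 in young mice 1 to 5, and 28.9, 36.9 and 49.7 as the lowest, median and highest of the old mice. Neither ages nor letters separated it, with an age value of 0.25 (SE 0.24) and a letter difference of -0.04 (SE 0.24, adjusted p = 0.921).

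Tead1 (chr7:112679318-112906807, plus strand) was spread over a range of 4.47 to 61.6 normalized read counts. Young mice 1 to 5 had 35.5, 57.7, 15.1, 5.89 and 24.4, and old mice had 4.47 at the lowest, 38.2 at the median and 61.6 at the highest. The low values belonged to letter B at both ages. The 6 letter A mice had 35.5 to 61.6 and the 6 letter B mice 4.47 to 29.1, with no overlap, and the letter difference was -1.72 (SE 0.36, adjusted p = 0.00106). By age the value was 0.41 (SE 0.57), and 0.11 with the letter as covariate. Its sign was not fixed, with -0.02 without young mouse 4 and 0.82 without old mouse 4.

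Tead4 (chr6:128224288-128300823, minus strand) had the largest letter difference of the 7 genes. Young mice 1 to 5 had 18.4, 35.6, 6.08, 3.34 and 15.9 normalized read counts, and old mice 0.583, 18.5 and 48.9 as the lowest, median and highest. The lowest value, in old mouse 4, was 3 reads. Letter A mice had 18.4 to 48.9 and letter B mice 0.583 to 15.9, again with no overlap, and the letter difference was -2.13 (SE 0.47, adjusted p = 0.0019). It was -2.41 in old mice alone (adjusted p = 0.0108) and -1.73 in young mice alone, which did not pass (adjusted p = 0.115). The age value was 0.09 (SE 0.73) and turned to -0.28 with the letter as covariate and to -0.31 without young mouse 4, and was 0.61 without old mouse 4.

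Of the kinases, Lats1 (chr10:7681214-7716460, plus strand), which phosphorylates TAZ and YAP, had normalized read counts of 169, 133, 188, 227 and 166 in young mice 1 to 5. Old mice had 108 at the lowest, 144 at the median and 232 at the highest, and the age value was -0.14 (SE 0.22). Lats1 was higher in letter B, with means of 203 ± 30.5 against 135 ± 20.4 in letter A and a log2 difference of 0.57 (SE 0.17, adjusted p = 0.0122). The letters overlapped between 166 and 169, and the call was lost without old mouse 4 (0.51, adjusted p = 0.0506) and in young mice alone (0.36, adjusted p = 0.4).

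Stk4 (chr2:164070322-164155524, plus strand), which encodes the upstream kinase MST1, had 563, 431, 571, 575 and 529 normalized read counts in young mice 1 to 5. Old mice had 193 at the lowest, 597 at the median and 645 at the highest. Old mice 5 and 7, which had the shallowest libraries, gave the low values of 193 and 333. The same mice had the lowest sums of the 3 genes that the gate selects for, 624 and 996 against 1298 to 2337 in the other 10 mice, and old mouse 5 the highest sums of gate-negative and stromal markers given above. The part of these in the low values was not tested. The age value of -0.20 (SE 0.29) became 0.01 without old mouse 5. Letter B was higher by 0.51 (SE 0.23), which did not pass the threshold (adjusted p = 0.0876) but did without young mouse 1 (adjusted p = 0.0461) or old mouse 1 (adjusted p = 0.0358).

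**Figure D3:**
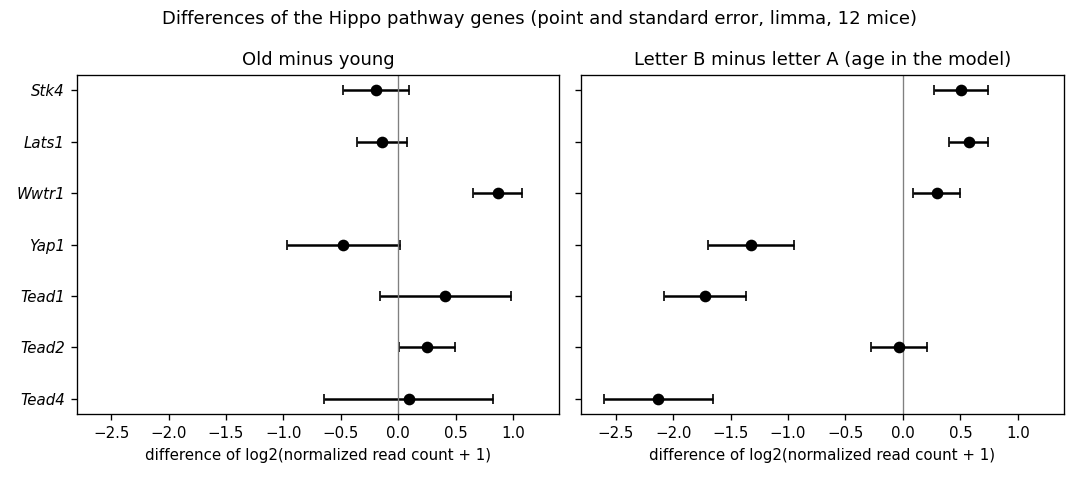
Difference of log2(normalized read count + 1) (x axis) of each Hippo pathway gene between old and young mice (left) and between letter B and letter A mice with age in the model (right). Points are limma estimates over 12 mice and bars standard errors. Wwtr1 had the largest age value, 0.86, while Tead4, Tead1 and Yap1 had letter differences of -2.13, -1.72 and -1.32.

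In all, 4 of the 7 core genes passed the test between the letters, 3 lower in B and 1 higher, against 36.1% of all genes tested, 25.6% lower and 10.5% higher. Tead1 and Tead4, 2 of the 7, separated the letters without overlap, with A above B, against 7.33% of all genes. Counted in either direction, 10.5% of all genes separated the letters. The split of all calls depended on the scaling, with 1301 genes higher and 3161 lower in B as deposited, and 3360 higher and 2541 lower after rescaling by median ratios, which moved the median letter difference of all genes from -0.09 to 0.21. Tead4, Tead1 and Yap1 stayed lower in B under that rescaling, at -1.87, -1.44 and -1.04, and Lats1 stayed higher at 0.87 (adjusted p of 0.00232, 0.00176, 0.0187 and 0.00321). Wwtr1 then passed the test at 0.59 (adjusted p = 0.0306) and Stk4 at 0.81 (adjusted p = 0.0208), whereas Tead2 did not and changed sign, to 0.26. The 6 calls among the 7 genes stand against 47.8% of all genes under that scaling, 27.2% higher and 20.6% lower.

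The letter differences of the core broadly followed the level of the genes (the plot of letter difference against level). Among all genes with a mean of 10 to 20, where Yap1 and Tead4 lie, the median letter difference was -1.21 and 53.7% were called lower in B. For means of 20 to 50, which hold Tead1 and Tead2, these values were -0.24 and 28.8%. The median was 0.17 for means of 50 to 100, where Wwtr1 lies, 0.37 for 100 to 200, where Lats1 lies, and 0.65 for means of at least 500, where Stk4 lies. The letter difference of Tead1, -1.72, lay further from the median at its level than those of Wwtr1, Lats1 and Stk4 did. With every library thinned to 861047 reads, the letter differences were -2.10 for Tead4, -1.72 for Tead1, -1.19 for Yap1 and 0.54 for Lats1, all 4 still past the threshold, against 30.8% of all genes.

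The 8 gate-negative genes and the 12 mesenchymal and endothelial markers all had lower means in B, as had Yap1, Tead1 and Tead4, whereas of the 5 megakaryocyte markers 2 had higher and 3 lower means in B. Over all genes tested, the letter difference was below 0 in 91.7% of those with means of 10 to 20. The share was 67.2% for means of 20 to 50 and 27.8% for 50 to 100. Genes with a mean below 10 are not in these shares. Of the 3 gate-negative genes tested, 2 were lower in B, and of the 9 mesenchymal and endothelial markers tested, 6 were lower in B, and none of either list was higher, against 25.6% of all genes lower. All but Kdr of these 12 genes had means of 10 to 50, where 53.7% (10 to 20) and 28.8% (20 to 50) of all genes were called lower. The summed normalized read count of the 8 gate-negative genes ranged from 66.0 to 191 in letter A and from 20.4 to 106 in letter B mice. For the 12 mesenchymal and endothelial markers the range was 281 to 582 in A and 142 to 292 in B. Of the 4 megakaryocyte markers tested, Gp6 was lower in B and none was higher, with values from -1.11 to 0.33, and the sum of the 5 with a row was 67.6 to 107 in A and 58.1 to 156 in B. Of the defining markers, Cd3e and Acta2 were each at 0 in 1 mouse, and no other gene of these 2 lists was at 0 in any mouse, nor was any megakaryocyte marker. The part of these cells in the letter differences was not tested. The 3 genes that the gate selects for had letter differences of 0.48 to 0.74, of which none passed the test (limma, 2 of 3 at an unadjusted p under 0.05, against 47.2% of all genes).

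**Figure D4:**
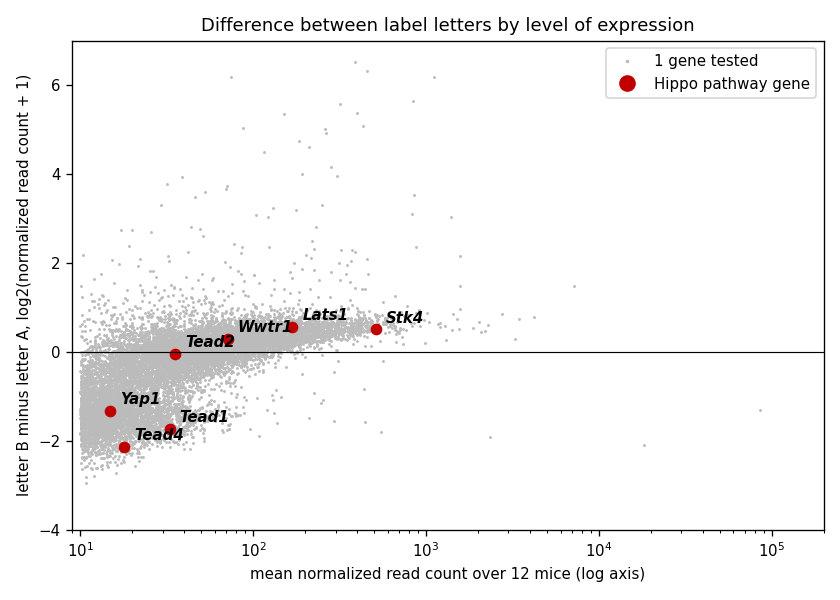
Letter B minus letter A difference of log2(normalized read count + 1) (y axis) against the mean normalized read count over 12 mice (x axis, log scale) for 12354 genes (grey points) and the 7 Hippo pathway genes (red points). Low genes mostly lie below 0 and high genes above it, and Tead1 and Tead4 lie near the lower edge of the cloud.

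Whether the age value differed between the letters was tested for each core gene. None of the 7 passed (limma, adjusted p = 1.0 for each, 0 of 7 at an unadjusted p under 0.05, against 3.43% of all genes), against 2 of 12354 genes, 0.0162%, called by limma, 2 by edgeR and 4 by DESeq2. The values ranged from -0.68 (SE 0.97) for Tead4 to 0.56 (SE 0.48) for Stk4, and their standard errors were 0.35 to 0.97.

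Across the 12 mice, some of the core genes varied together once the letter means had been subtracted. Tead1 and Tead4 had a Pearson r of 0.91, Tead4 and Yap1 of 0.80, and Tead1 and Yap1 of 0.66. Old mouse 4 had the lowest value of Tead4, Tead1 and Yap1, from 3, 23 and 16 reads, and its part in these r values was not tested. The kinases Stk4 and Lats1 had an r of 0.64. Between these kinases and Tead1, Tead4 and Yap1, r was negative, from -0.59 (Tead4 and Lats1) to -0.24 (Stk4 and Yap1). Wwtr1 had r of 0.14 with Stk4, 0.10 with Tead1, 0.07 with Tead2, -0.07 with Lats1, -0.10 with Tead4 and -0.59 with Yap1. By likeness to Wwtr1 among the genes tested, the other core genes stood between rank 3989 (Stk4) and rank 12065 (Yap1). These r values describe 12 libraries that share their depth and scaling within a mouse. Age means were left in, and how many other gene pairs reach such r values was not counted.

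The 5 genes most like Wwtr1 by this measure among the genes tested were Clec4e (r = 0.93), which encodes a C-type lectin receptor of myeloid cells, Cd53 (0.92), a leukocyte tetraspanin, Arid5b (0.91), a chromatin-binding factor, Ormdl3 (0.91), a regulator of sphingolipid synthesis, and Tc2n (0.91). Of these, 3 were also among the first 5 without subtraction of the letter means, and 2 with Spearman's rho. These genes were chosen for likeness to Wwtr1, which was itself chosen for its age value, so their ages are a description. Because age means were left in, the likeness holds any age difference shared with Wwtr1. Cd53 had 15.2 ± 10.9 normalized read counts in young and 76.3 ± 26.4 in old mice.

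The rest of the pathway was described with 6 lists of 81 genes, chosen by role. Of these, 64 had a row, 56 passed the minimum mean of 10 and 17 were not analysed here. None of the 56 passed the age test (limma, 0 higher and 0 lower, 1 at an unadjusted p under 0.05), against the 0.105% of all genes called and the 3.95% at an unadjusted p under 0.05. Their median old-minus-young value was -0.02, as over all genes tested (-0.02), and 25 values were positive and 31 negative. By DESeq2, 1 gene of the 56, Amotl2, was called higher in old mice, against 0.461% of all genes, and by edgeR none.

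Amotl2 (chr9:102716672-102733418, plus strand) encodes a motin that binds YAP and TAZ at cell junctions and is itself a target gene of TEAD with both coactivators. Its normalized read counts in young mice 1 to 5 were 45.1, 67.8, 41.0, 40.2 and 49.4. In old mice 1 to 7 they were 99.4, 102, 102, 81.5, 69.5, 71.3 and 102. Every old mouse lay above every young mouse, by a narrow gap between young mouse 2 and old mouse 5, and old mouse 5 had the lowest old value of both Amotl2 and Wwtr1. Of all genes tested, 0.461% separated the ages without overlap, in either direction. The means were 48.7 ± 11.3 and 89.7 ± 15.2, a log2 difference of 0.88 (SE 0.19) that did not pass the test (adjusted p = 0.105, limma).

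The call for Amotl2 depended on the setting, with 6 of 27 alternatives past the threshold and 21 not, and values from 0.60 to 1.11. It was past the threshold with the letter as covariate (0.87, adjusted p = 0.0445, against 0.299% of all genes called), within letter B (1.11, adjusted p = 0.00757), without young mouse 2 (1.0, adjusted p = 0.0375), without old mouse 5 (0.93, adjusted p = 0.0352, and 0.92, adjusted p = 0.00825, with the letter as covariate as well) and with DESeq2 (0.89, adjusted p = 0.00127). It was not within letter A (0.60, adjusted p = 1.0), with thinned reads (0.72, adjusted p = 0.453), with edgeR (0.89, adjusted p = 0.0895), with no variance trend (0.88, adjusted p = 0.283) or after rescaling by median ratios (0.84, adjusted p = 0.599). Nor was it with the replicate block (0.90, adjusted p = 0.286), with any other filter on low values or pseudocount, in mice numbered 1 to 5 alone, or in 10 of the 12 fits that left out 1 mouse. Over the 12 mice, Amotl2 had a Pearson r of 0.85 with Wwtr1 after subtraction of the letter means and stood at rank 28 among all genes by likeness to it, a comparison chosen after its values were seen. Age means were left in, and both genes were higher on average in old mice, so this r holds their shared age difference.

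The other target genes of TAZ and YAP did not pass the age test. Of these 21, 13 were tested, with 10 values positive and 3 negative, a median of 0.08 and 0 of 13 at an unadjusted p under 0.05. Ctgf, a matricellular protein and a classical target, had 7.70 ± 4.63 in young and 11.9 ± 7.29 in old mice (0.53, SE 0.61, adjusted p = 1.0). Axl, a receptor tyrosine kinase, had 33.5 ± 10.9 and 32.1 ± 9.85 (-0.07, SE 0.26, adjusted p = 1.0). Cyr61, at 7.87 ± 5.57 and 8.47 ± 4.8, and Ankrd1, at 7.98 ± 6.67 and 8.46 ± 5.84, were below the minimum mean and were not tested. Ptpn14, a phosphatase that binds YAP, had 92.0 ± 7.80 and 118 ± 21.6 (0.34, SE 0.17, adjusted p = 1.0).

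Upstream of the core, 14 genes that activate the kinases had a median age value of -0.09, with values between -0.37 for Taok2, a kinase of the TAO family, and 0.23 for Mink1. The 10 genes that restrain the kinases, mainly of the STRIPAK phosphatase complex, had a median of -0.10 and values between -0.33 for Ppp2cb, a phosphatase catalytic subunit, and 0.39 for Wtip. The 13 junction and polarity genes had a median of 0.14, with 10 values positive and 3 negative. The 6 genes of cytoplasmic retention and turnover had values from -0.25 for Ywhah to -0.01 for Ywhab, both adaptors that bind phosphorylated proteins. Vgll4, which competes with TAZ and YAP for TEAD, had -0.20 (SE 0.25). Amotl2 and Ptpn14 are counted in both the junction and the target lists.

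**Figure D5:**
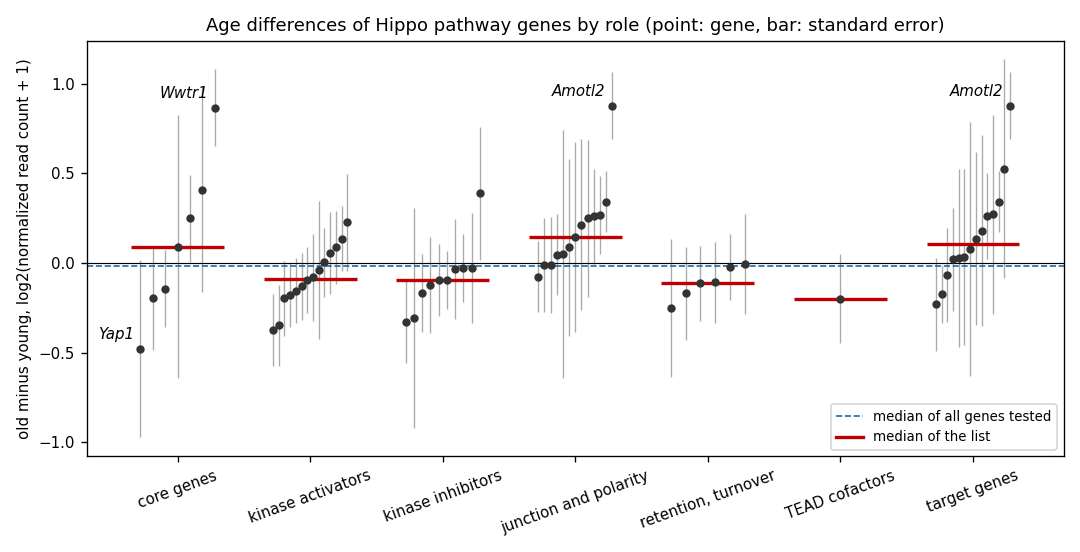
Old minus young difference of log2(normalized read count + 1) (y axis) of each tested gene of the Hippo core and of 6 lists of pathway genes by role (x axis). Points are genes, bars standard errors, red lines the medians of the lists and the dashed blue line the median of all genes tested, -0.02. Wwtr1 at 0.86 and Amotl2 at 0.88, which appears in 2 lists, stand above the other genes.

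Between the letters, 20 of the 56 pathway genes were called, 35.7% against 36.1% of all genes, with 7 higher and 13 lower in B. Over all genes tested, 10.5% were called higher and 25.6% lower. By level, 53.7% were called lower at means of 10 to 20 and 28.8% at 20 to 50. At means of 50 to 100, 4.05% were called lower and 11.8% higher, and at 100 to 200, 0.542% and 29.8%. Whether the lists differed from each other in direction was not tested. Of the 13 junction and polarity genes, 6 were lower in B and none higher, among them the atypical cadherins Fat2 (-2.0, SE 0.42, adjusted p = 0.00131), Fat3 (-1.80, SE 0.28, adjusted p = 5.08e-05) and Fat4 (-1.75, SE 0.22, adjusted p = 2.68e-06). Of the 14 target genes, 5 were lower, with Rbms3 (-1.71), Nt5e (-1.57), Tgfb2 (-1.53) and Ctgf (-1.24) among them, and 1 was higher. Ctgf kept its call in 4 of the 12 fits that left out 1 mouse. Of the 6 retention genes, 2 were higher, Ywhah (1.26, SE 0.22, adjusted p = 0.000255) and Ywhab (0.76, SE 0.20, adjusted p = 0.00604), and none was lower.

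Among the activators of the kinases, Mink1 (0.76, adjusted p = 0.00453) and Taok1 (0.54, adjusted p = 0.0314) were higher in B and Wwc1 (-1.0, adjusted p = 0.0133) was lower. Among the inhibitors, Strn3 (0.78, adjusted p = 0.00541) was higher and Strip2 (-1.49, adjusted p = 0.0106) lower. Vgll4 was higher (0.58, adjusted p = 0.0315). Taok1 and Vgll4 each kept their call in 6 of the 12 fits that left out 1 mouse, and lost it with no variance trend. Mink1, Taok1, Strn3, Ywhab and Vgll4 had means above 50 normalized read counts, and Wwc1, Strip2, Nt5e, Tgfb2, Rbms3 and Ctgf had means below 50, as in the core genes. Fat2, Fat3 and Fat4 were lower in B although their means lay above 50.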

How the data were processed

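RNA had been isolated from sorted LSK-SLAM cells, depleted of ribosomal RNA and prepared with a total RNA kit. Of the 24 labelled samples, 2 belong to each of 12 mice, and the table holds 1 column per mouse, counted once. The authors deposited a signal, read counts per gene divided by library size and a scaling factor. The submitters' processing notes name FastQC 0.11.8, STAR 2.5.4b, edgeR 3.24.3 and mm10, and the counting tool and annotation are not given in the sources used here. Dividing by the value of 1 read gave whole reads for 100% of values (tolerance 0.001). The authors' own comparison (fold changes, p-values) was not used.

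Values were tested as log2(normalized read count + 1) with limma 3.58.1 in R 4.3.3 (lmFit, eBayes with trend) over 12354 genes with a mean of at least 10, with Benjamini-Hochberg adjustment and a threshold of 0.05. Age was fitted without covariate, the letter with age as covariate, and their interaction over the 4 classes of age and letter. edgeR 4.0.16 (quasi-likelihood) and DESeq2 1.42.0 on recovered reads, other filters and scaling, thinned reads, single letters and left-out mice were alternatives, some added after seeing the data, and the fits were tested on simulated data. Lengths are exonic bases of GENCODE genes and promoters are from RefSeq, both on GRCm38. Yap1 overlaps Gm20416 on the opposite strand over 1.25% of its exonic bases, and without a known strand setting those reads cannot be told apart.

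The genes, lists and tests were chosen with earlier results of these data known. Named were all core genes with a row, in each list up to 3 genes with the largest age and 3 with the largest letter difference, Ctgf, Cyr61, Ankrd1, Amotl2 and Axl in any case, and the 5 genes most like Wwtr1. A further gene of the marker lists is not reported here.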

Additional observations from a re-analysis of the deposited data

How the results depend on the processing

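Genes called between the ages numbered 13, and 2 with no variance trend, 5 after rescaling by median ratios, 57 with DESeq2, 37 with the letter as covariate, 1 in letter A alone, 100 in letter B alone, 8 in replicates 1 to 5 alone, 3 to 32 with each mouse left out, and 76 without old mouse 5 with the letter as covariate. A replicate block, fitted to the mice numbered 1 to 5, called 19 genes and gave Wwtr1 a difference of 0.85. Whether mice with the same number pair was left undecided. Over the 5 young and old pairs with the same number, r between deviations ran from -0.559 to 0.615. Its mean was 0.136, against -0.023 for pairs with other numbers. The letter moved r too, with a mean of 0.348 where it was shared and -0.329 where it was not. Some pairs with the same number differ in letter, so these values cannot settle pairing. Genes called between the letters numbered 4462, and 2232 at a minimum mean of 20, 447 in young mice alone, 2761 in old mice alone and 2943 to 5003 with each mouse left out. Genes whose age difference differed between the letters numbered 2, and 1 with no filter on low values, 0 with no variance trend, 4 with DESeq2 and 0 to 6 with each mouse left out. The causes were not tested. Among the core genes and the named genes of the lists, no called difference changed direction under an alternative that was run. Genes outside these were not followed one by one. At a minimum mean of 20, Yap1 and Tead4 were not tested. Yap1, Tead1 and Tead4 had the fewest reads of the core genes, as few as 12, 23 and 3 in a mouse. The 12 reads were in old mouse 7, with 861047 reads in all, and the 23 and 3 in old mouse 4, with 5004774. The part of depth in these low counts was not tested.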
